A study of Homo sapiens with 4 samples.

Results

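The genes for the subunits of RNA polymerases I, II and III, with the factors RRN3, UBTF, MAF1 and BRF2, were followed in hypoxic PLC/PRF/5 cells with and without knockdown of USP22. Members were taken by symbol from the deposited count table, as every gene named POLR1, POLR2 or POLR3 followed by a letter, plus TWISTNB, CD3EAP and ZNRD1 under their older names and the listed factors. This gave 33 genes of 12153 in the table, on 38 rows, where a row is 1 RefSeq mRNA accession. For the 4 genes with more than 1 row, the row with the highest summed count stood for the gene. Other genes of the family, among them POLR1E, POLR3E, POLR3F and BRF1, had no row and were not analysed here. PLC/PRF/5 is a human hepatocellular carcinoma line. There were 2 libraries of cells with lentiviral knockdown of USP22 and 2 control libraries, titled NC, and both groups had spent 48 h in 1% oxygen with 5% carbon dioxide. No library from cells at ambient oxygen was analysed here, and the labels name neither the knockdown sequence nor the content of the control vector. USP22 is a ubiquitin protease of the SAGA coactivator, a complex that acts on chromatin at genes read by polymerase II.

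The nuclear RNA polymerases divide the genome between them. Polymerase I makes the precursor of the large ribosomal RNAs in the nucleolus, polymerase II makes messenger RNAs, and polymerase III makes transfer RNAs, 5S ribosomal RNA and other small RNAs. Each enzyme has large catalytic subunits of its own, while a set of small subunits is common to all of them and another pair is common to polymerases I and III. The libraries were made from mRNA, so the values below are of the mRNAs that encode the enzymes and say nothing on the amounts of ribosomal or transfer RNA.

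The libraries held 15027209 and 17194929 counts in knockdown and 15621574 and 16536639 counts in control cells. The unit of level is CPM, a count scaled to a normalised library of 1e+06 counts. The USP22 row had 359.5 and 447 CPM in knockdown libraries against 2937 and 2573 CPM in control libraries. Its log2 fold change was −2.77 ± 0.17 (SE), with adjusted p = 1.36e-06. Every adjusted p given here is edgeR's, from its quasi-likelihood F test with Benjamini-Hochberg correction. Of 11 hepatocyte and hepatoma markers, all had a row, and their summed level was 19088 and 21354 CPM in knockdown against 19402 and 20726 CPM in control libraries. Of these, 4 rose (AFP, APOA2, FGB and KRT18) and 0 fell (36.4% called, against 18.7% of all rows tested). The log2 fold change was positive in 6 and negative in 5. Both knockdown libraries lay above both controls in 6 and below them in 2, TF and TTR (72.7% without overlap, against 59.6% of all rows). Across all rows 29.3% lay above and 30.3% below. Most of the sum was TF. The HNF4A row, of 1 accession of a gene with 10, held 47 counts in total and lay at 0.0631 to 1.52 CPM. It need not stand for HNF4A as a whole. Markers of other cells summed to 222 to 384 CPM for leukocytes, of which LYZ made up 194 to 359 CPM, 11.6 to 29.6 CPM for endothelium and 19.0 to 31.7 CPM for fibroblasts. The leukocyte markers PTPRC, CD3E and CD14 had no row and were not analysed here. PECAM1, an endothelial marker, rose to 28.2 and 22.3 CPM in knockdown against 14.8 and 10.1 CPM in control libraries, and the part of this in the results below was not tested.

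Of the 33 genes, 31 had enough counts to be tested. In the knockdown 4 rose, POLR1A, UBTF, POLR3K and POLR2L, and 2 fell, POLR2A and POLR3D. These 6 were 19.4% of the tested members, against 18.7% of all 12337 rows tested, so the members were called about as often as rows in general. By direction, 8.49% of all rows rose and 10.2% fell. The groups did not overlap in 21 members (67.7%, against 59.6% of all rows), with the knockdown libraries above in 15 and below in 6. Across all rows the shares were 29.3% above and 30.3% below. The median log2 fold change of the tested members was 0.21, against 0.00 over all rows. Calls in both directions were thus found in the family.

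Members differed widely in depth, and those of genes with several RefSeq mRNA accessions had the lower median count. The rows of the 16 members with 1 accession summed to 230 to 50357 counts over the 4 libraries, with a median of 5984. Those of the 17 members with several accessions summed to 21 to 6740 counts, with a median of 301. Of the members with 1 accession 5 of 16 were called (31.2%), against 28.1% of all tested rows of such genes. Among the others it was 1 of 15 tested (6.67%), against 18.7% of all rows tested. The share over all rows of genes with several accessions was not computed, so this count is not read as a deficit. CD3EAP, ZNRD1, POLR1B, POLR2B, POLR2F, POLR2H and POLR3B had under 150 counts each. Each of these rows is of 1 accession of a gene with several, so it need not stand for the gene as a whole. Levels are not ranked between genes, since transcript length was not taken into account. In RNA from a whole culture a lower level in every cell and fewer expressing cells cannot be told apart. The labels do not say that the libraries of a group came from separate cultures, so the spread behind the p-values may be technical.

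**Figure D1:**
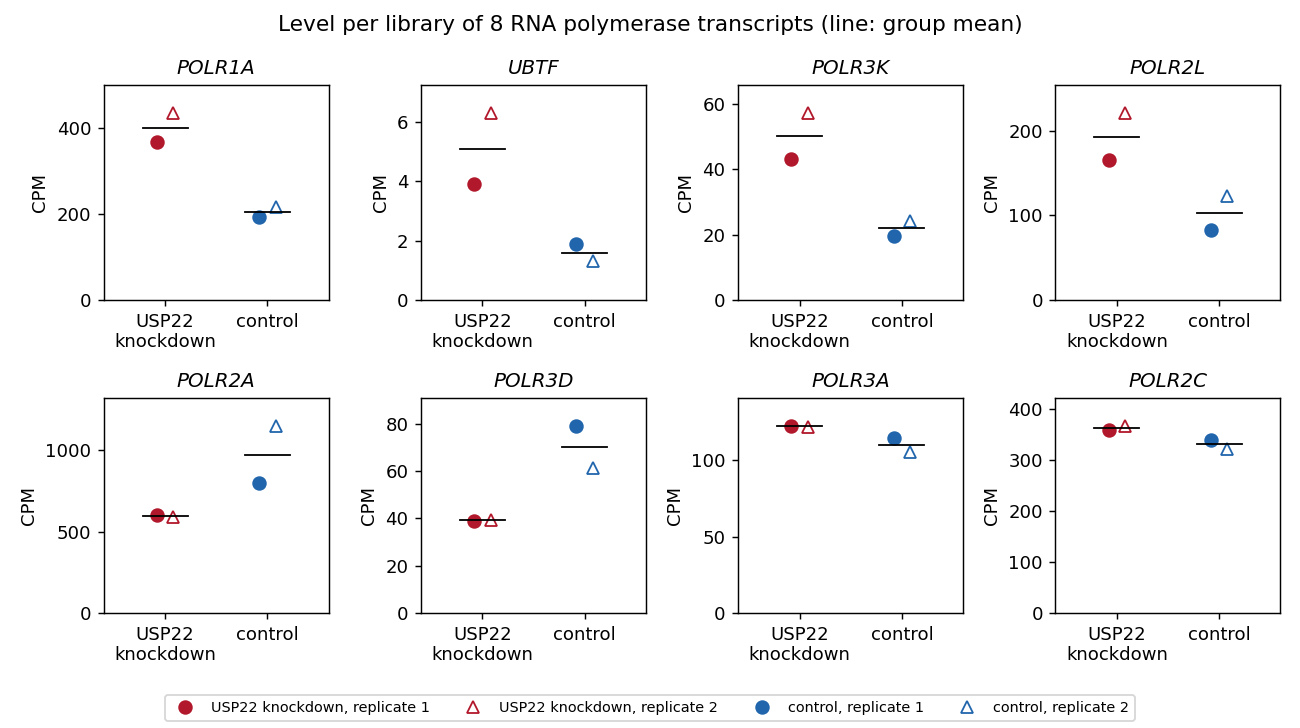
Level in CPM (vertical axes, starting at 0) of 8 polymerase transcripts in the 2 USP22 knockdown and the 2 control libraries, with the group means as lines. The knockdown libraries lie above both control libraries for POLR1A, UBTF, POLR3K and POLR2L and below them for POLR2A and POLR3D. For POLR3A and POLR2C they also lie above both, by smaller margins, with log2 fold changes of 0.15 and 0.13.

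Among the members private to polymerase I, the catalytic subunit rose. POLR1A, which forms much of the active centre of the enzyme, had 367 and 435 CPM in knockdown libraries against 194 and 217 CPM in control libraries. Both knockdown libraries stood well clear of both control libraries. The mean was 401 ± 48.3 CPM in knockdown and 205 ± 15.9 CPM in control cells (SD, n = 2 each), with a log2 fold change of 0.97 ± 0.17, a 1.95-fold rise (adjusted p = 0.00150). TWISTNB, a subunit of the stalk through which polymerase I meets its initiation factor, had 73.8 and 75.8 CPM in knockdown against 59.3 and 59.0 CPM in control libraries. Its groups did not overlap and its libraries lay close together, but the change of 0.34 ± 0.18 did not pass (adjusted p = 0.217). The row of POLR1B, the second-largest subunit, had 21 and 15 counts in knockdown and 44 and 21 counts in control libraries and did not pass (adjusted p = 0.394). CD3EAP had 10 and 16 counts against 0 and 11, and ZNRD1 had 11 and 12 counts against 6 and 9. Neither of these last genes passed (adjusted p = 0.496 and 0.674).

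The factors that recruit polymerase I gave 1 call. UBTF, which binds along the ribosomal DNA and holds it open, had 59 and 108 counts in knockdown libraries against 30 and 21 counts in control libraries, or 3.90 and 6.29 against 1.89 and 1.30 CPM. Both knockdown libraries were above both control libraries, and the log2 fold change was 1.67 ± 0.45 (adjusted p = 0.0213). This is the row of a single accession, NM_001076683.1, of a gene with 3, so it need not stand for UBTF as a whole. With control replicate 2 left out the fold change was 1.45 (adjusted p = 0.0533), and with knockdown replicate 2 left out it was 1.30 (adjusted p = 0.198), so each omission ended the call; the 10 alternatives gave adjusted p-values of 0.00256 to 0.198. RRN3, which joins polymerase I to the promoter complex, had 8.73 and 7.05 CPM in knockdown against 9.03 and 7.73 CPM in control libraries. Its groups overlapped, and the log2 fold change was −0.09 ± 0.31 (adjusted p = 0.881). RRN3 has near-identical pseudogene copies, which makes its count uncertain.

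Among the 9 members private to polymerase II, the largest subunit fell and 8 did not pass. POLR2A carries the active site and the repeated C-terminal tail whose phosphorylation marks initiation and elongation. Its level was 600.4 and 587 CPM in knockdown libraries against 797 and 1149 CPM in control libraries. The knockdown libraries nearly coincided, whereas the control libraries stood apart from each other. The mean was 594 ± 9.71 CPM in knockdown and 973 ± 249 CPM in control cells (SD, n = 2 each), a 1.64-fold decrease (log2 fold change −0.71 ± 0.18, adjusted p = 0.0140). Without control replicate 2, the higher of the controls, the change was −0.41 and was not called (adjusted p = 0.268; 1.08e-06 to 0.268 in 11 alternatives).

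None of the other subunits private to polymerase II passed. POLR2C, a subunit around which the enzyme is assembled, had 359 and 368 CPM in knockdown against 340.5 and 322 CPM in control libraries (0.13 ± 0.15, adjusted p = 0.599). POLR2D and POLR2G, which form the stalk, had log2 fold changes of 0.23 ± 0.17 and 0.21 ± 0.17 (adjusted p = 0.395 and 0.428). For these 3 genes both knockdown libraries were above both control libraries by small margins. POLR2I, which acts in the fidelity of transcription, had 84.1 and 133 CPM in knockdown against 67.0 and 81.6 CPM in control libraries. The groups did not overlap, but the distance came mainly from knockdown replicate 2, and the change of 0.55 ± 0.22 did not pass (adjusted p = 0.105). The authors' deposited table gives POLR2I a q-value of 0.0396.

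POLR2J, the partner of POLR2C in assembly, had 83.1 and 110.4 CPM in knockdown against 91.9 and 104 CPM in control libraries, and the groups overlapped (−0.02 ± 0.19, adjusted p = 0.959). Its near-identical copies POLR2J2 and POLR2J3 can share reads with it and are uncertain. Their log2 fold changes were 0.38 ± 0.42 and −0.24 ± 0.21, and neither passed (adjusted p = 0.593 and 0.492). POLR2B, the second-largest subunit, had only 10 and 9 counts in knockdown and 21 and 8 counts in control libraries on its row. That row is of 1 accession of a gene with 3 and need not stand for POLR2B as a whole. POLR2M, a protein that binds polymerase II and is not part of its core, had 4.03 and 6.41 CPM in knockdown against 3.28 and 4.82 CPM in control libraries and did not pass (adjusted p = 0.576). It shares exons with a neighbouring readthrough gene, so its row is uncertain.

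Polymerase III showed changes in both directions among its private members. POLR3K, a small subunit that trims the nascent RNA and helps the enzyme stop and start again, had 43.2 and 57.3 CPM in knockdown libraries against 19.7 and 24.2 CPM in control libraries. The lower knockdown library was still well above the higher control library. The mean was 50.2 ± 9.99 CPM in knockdown and 21.9 ± 3.17 CPM in control cells (SD, n = 2 each), a 2.29-fold rise (log2 fold change 1.20 ± 0.23, adjusted p = 0.00298). POLR3D, a subunit of the module that acts in termination, had 39.0 and 39.2 CPM in knockdown against 79.1 and 61.2 CPM in control libraries. The knockdown libraries were nearly equal and below both controls, with a 1.79-fold decrease (log2 fold change −0.84 ± 0.20, adjusted p = 0.0108). Without control replicate 1 the change was −0.64 and was not called (adjusted p = 0.158; 4.06e-05 to 0.158 in 11 alternatives).

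POLR3A, the catalytic subunit of polymerase III, had 123 and 122 CPM in knockdown against 114 and 105 CPM in control libraries, a log2 fold change of 0.15 ± 0.17 (adjusted p = 0.578). POLR3B, the second-largest subunit, had 48 and 54 counts in knockdown against 5 and 39 counts in control libraries. Control replicate 1 stood apart from the other libraries, and the change of 1.20 ± 0.68 did not pass (adjusted p = 0.250). It was called, at 3.31, when control replicate 2 was left out (adjusted p = 0.00130; 0.00130 to 0.73 in 10 alternatives), which leaves the 5 counts as the only control. POLR3C, part of the module that opens the promoter, had 10.2 and 12.1 CPM in knockdown against 9.28 and 11.2 CPM in control libraries (adjusted p = 0.816).

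POLR3G and POLR3GL are alternative forms of the same subunit, of which POLR3G is known as the form of stem and tumour cells. POLR3G had 32.3 and 32.6 CPM in knockdown against 44.2 and 39.8 CPM in control libraries, and POLR3GL had 11.8 and 10.1 CPM against 19.0 and 12.6 CPM. Both genes had both knockdown libraries below both control libraries, but neither passed (−0.37 ± 0.20, adjusted p = 0.230, and −0.53 ± 0.29, adjusted p = 0.227). The ratio of POLR3G to POLR3GL was 2.74 and 3.23 in knockdown and 2.33 and 3.17 in control libraries, and the groups overlapped. Among the regulators, MAF1, which represses polymerase III when nutrients are short, had 289 and 377 CPM in knockdown against 314 and 323 CPM in control libraries. The knockdown libraries lay on either side of the controls (0.06 ± 0.17, adjusted p = 0.840). BRF2, an initiation factor for the U6 class of promoters, had 32.0 and 47.4 CPM in knockdown against 47.7 and 48.2 CPM in control libraries. Only knockdown replicate 1 was clearly lower, and the change did not pass (−0.27 ± 0.22, adjusted p = 0.447).

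**Figure D2:**
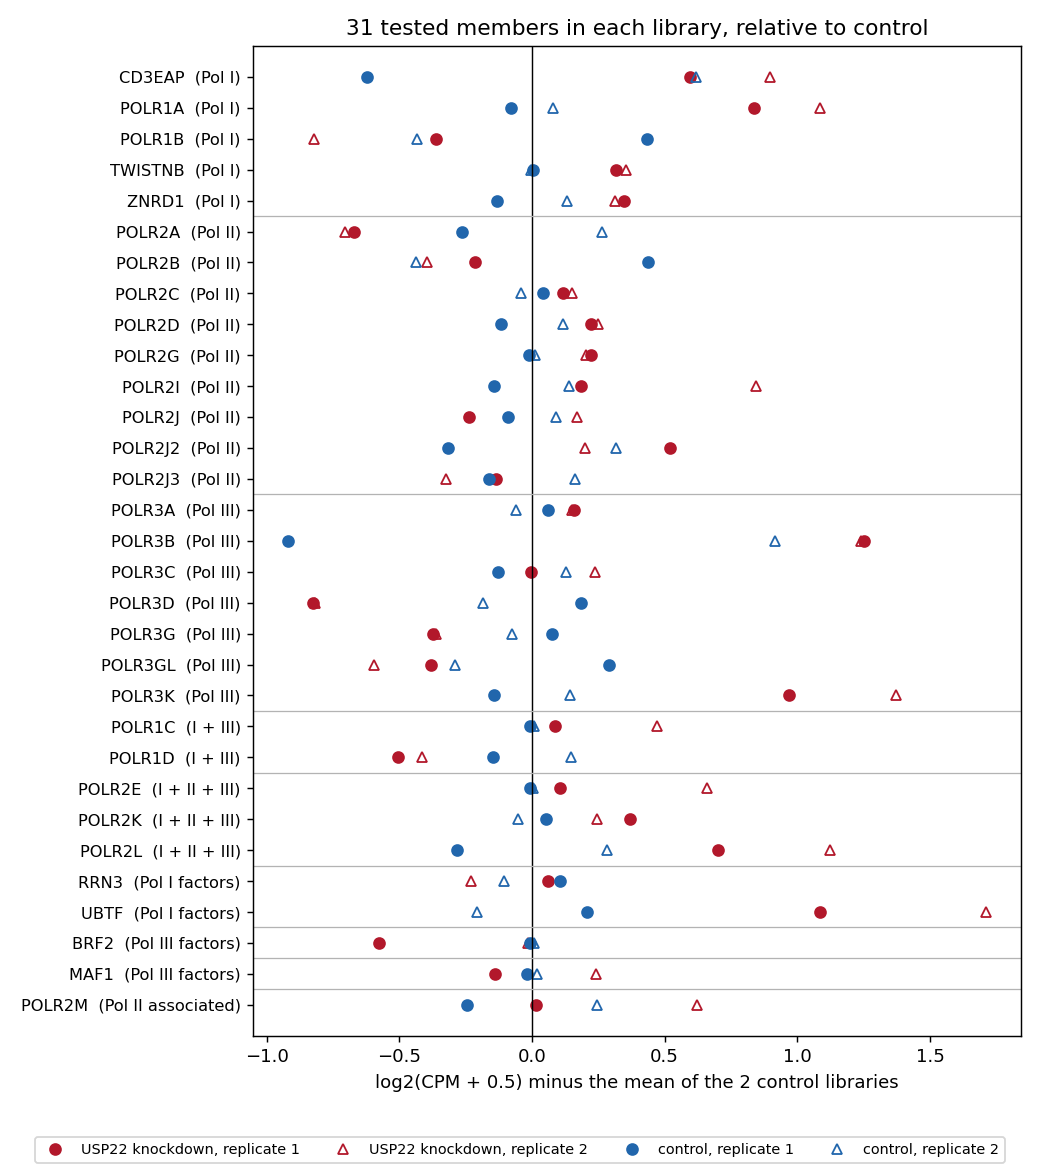
Level of the 31 tested members in each library, as log2(CPM + 0.5) minus the mean of the 2 control libraries (horizontal axis), grouped by the enzyme each belongs to. POLR1A, UBTF, POLR3K and POLR2L have both knockdown libraries to the right of both controls and POLR2A and POLR3D to the left. The groups also do not overlap in further members that were not called. Control replicates of CD3EAP and POLR3B lie far apart.

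The subunits common to several polymerases gave 1 call. POLR2L, a small subunit of all these enzymes that anchors the large ones, had 165 and 221 CPM in knockdown libraries against 82.8 and 123 CPM in control libraries. The groups did not overlap, although replicate 2 was the higher in each. The mean was 193 ± 39.6 CPM in knockdown and 103 ± 28.4 CPM in control cells (SD, n = 2 each), a 1.87-fold rise (log2 fold change 0.90 ± 0.21, adjusted p = 0.0103). Without control replicate 1 the change was 0.65 and was not called (adjusted p = 0.0987; 1.73e-08 to 0.0987 in 11 alternatives). POLR2K had 107 and 98.0 CPM in knockdown against 85.8 and 79.7 CPM in control libraries (0.31 ± 0.17, adjusted p = 0.244). POLR2E had 96.2 and 141 CPM against 89.0 and 89.7 CPM (0.41 ± 0.20, adjusted p = 0.176). In both, the knockdown libraries were above the controls without passing the threshold. The rows of POLR2F and POLR2H held 21 counts each over the 4 libraries and were not tested.

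POLR1C and POLR1D form the pair shared by polymerases I and III, on which assembly of both begins. POLR1D had 69.4 and 73.9 CPM in knockdown against 89.0 and 109 CPM in control libraries. The groups did not overlap, but the change of −0.47 ± 0.18 did not pass (adjusted p = 0.0938), while the authors' deposited table gives it a q-value of 0.0320. POLR1D also has 2 smaller rows. That of NM_001206559.1 had 6.88 and 9.20 CPM in knockdown against 14.6 and 11.6 CPM in control libraries (−0.70 ± 0.30, adjusted p = 0.123), and that of NM_152705.2 had 5.42 and 6.11 CPM against 4.23 and 3.28 CPM (0.62 ± 0.36, adjusted p = 0.266). The rows of this gene thus lay on either side of control, and none of them passed. POLR1C had 13.3 and 17.5 CPM in knockdown against 12.4 and 12.6 CPM in control libraries (0.30 ± 0.27, adjusted p = 0.483).

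Set side by side by enzyme, the median log2 fold change was 0.60 over the 5 tested members private to polymerase I, 0.13 over the 9 of polymerase II, 0.12 over the 7 of polymerase III and 0.31 over the 5 tested shared subunits. Calls numbered 1 of 5 (20.0%), 1 of 9 (11.1%), 2 of 7 (28.6%) and 1 of 5 (20.0%), against 18.7% of all rows. The median of polymerase I rests on few well-counted genes. It is the value of ZNRD1, whose row held 38 counts in total (0.60 ± 0.82, adjusted p = 0.674). The rows of CD3EAP and POLR1B held 37 and 101 counts. Without control replicate 1 or 2 the median of polymerase I was 0.35 or 0.92. That of polymerase III turned to −0.14 when only rows with at least 5 CPM in 2 libraries were kept. The differences between the enzymes in these shares and medians were not tested.

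**Figure D3:**
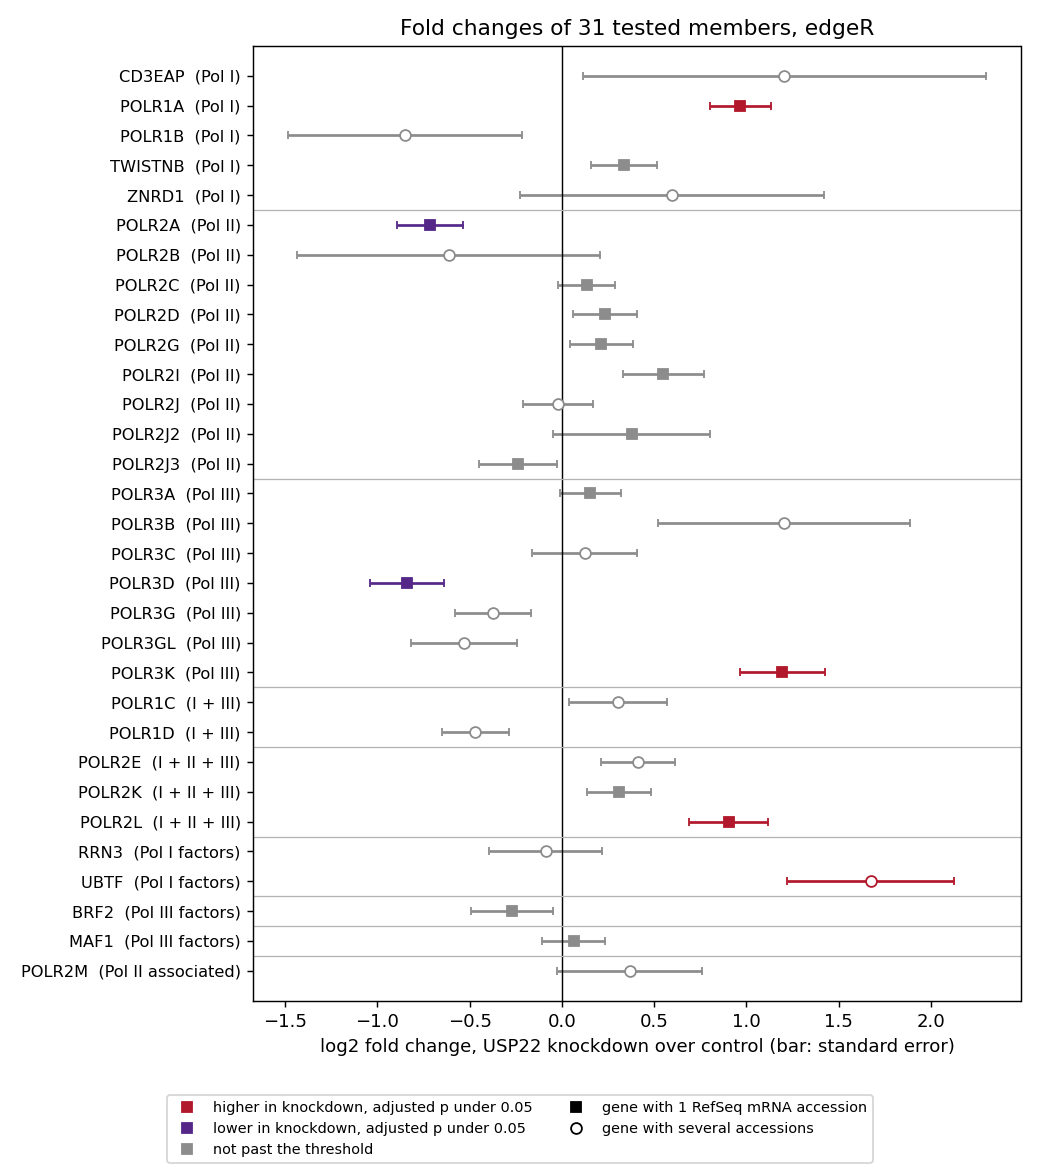
Log2 fold change of the knockdown over control with its standard error (horizontal axis) for the 31 tested members, by enzyme. Coloured symbols mark the 4 members that rose and the 2 that fell, filled squares genes with 1 RefSeq mRNA accession and open circles genes with several, whose error bars are often wider.

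Ratios of CPM between members are given within each library, to be read only between the groups. The ratio of POLR1A to POLR2A within a library was 0.611 and 0.742 in knockdown and 0.244 and 0.188 in control libraries, a 3.14-fold difference. The ratio of POLR3A to POLR2A was 0.204 and 0.208 in knockdown and 0.144 and 0.0917 in control libraries, and that of POLR1A to POLR3A 2.99 and 3.57 in knockdown and 1.70 and 2.06 in control libraries. Within polymerase III the ratio of POLR3K to POLR3D was 1.11 and 1.46 in knockdown and 0.249 and 0.395 in control libraries, a 4.05-fold difference. None of these ratios overlapped between the groups. An exact permutation test of each over the 4 libraries (two-sided) gave p = 0.333, the smallest that 2 libraries against 2 allow. The pairs were chosen with earlier results of these data known. Each of these ratios holds at least 1 called member. They thus restate the calls of POLR1A, POLR2A, POLR3K and POLR3D and add no support to them.

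**Figure D4:**
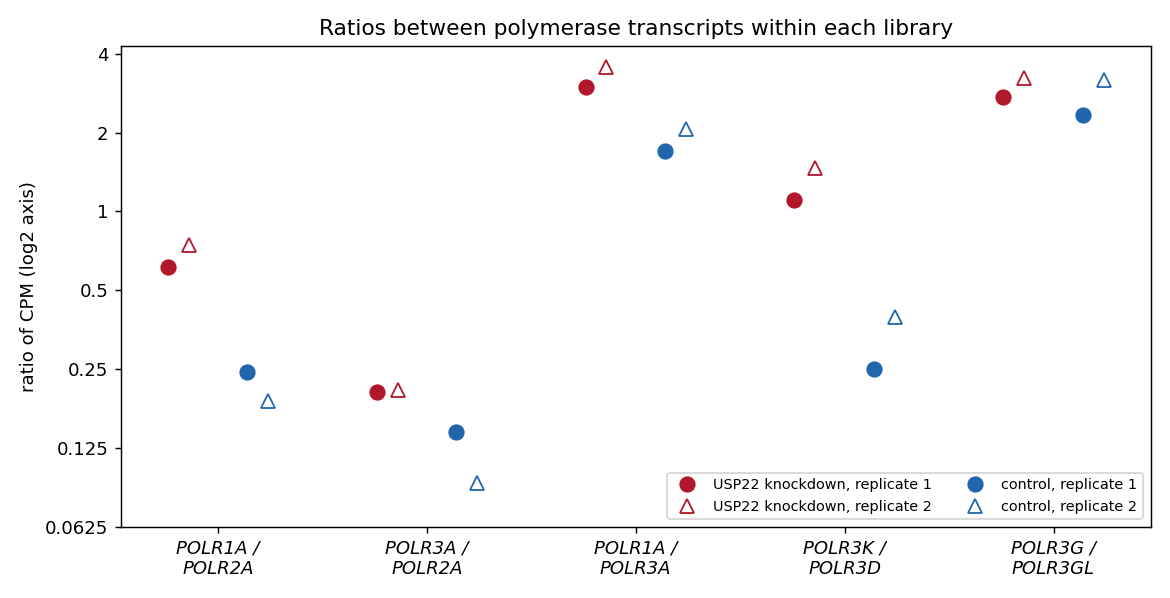
Ratio of the CPM of pairs of polymerase transcripts within each library (vertical log2 axis), knockdown libraries left of control libraries in each pair. The POLR1A to POLR2A ratio lies at 0.611 and 0.742 in knockdown and at 0.244 and 0.188 in control libraries, whereas the POLR3G to POLR3GL ratios of the groups overlap.

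The promoters of 3 called members are shown, 2 of genes that rose and 1 of the gene for the largest subunit of polymerase II, which fell. All 3 are genes with 1 RefSeq mRNA accession, and the other called members are not shown. RefSeq (GRCh38.p14) gives 250 bases before to 50 after each start, 5′ to 3′ on the gene's own strand. The reads were counted on another build, hg19 per the submitters' processing notes. Capitals mark ACGTG or GCGTG and their complements CACGT and CACGC, the core that hypoxia-inducible factors bind in general. The windows are chr2:86105837-86106136 (minus strand) for POLR1A, chr16:53559-53858 (minus) for POLR3K and chr17:7484116-7484415 (plus) for POLR2A.
POLR1A: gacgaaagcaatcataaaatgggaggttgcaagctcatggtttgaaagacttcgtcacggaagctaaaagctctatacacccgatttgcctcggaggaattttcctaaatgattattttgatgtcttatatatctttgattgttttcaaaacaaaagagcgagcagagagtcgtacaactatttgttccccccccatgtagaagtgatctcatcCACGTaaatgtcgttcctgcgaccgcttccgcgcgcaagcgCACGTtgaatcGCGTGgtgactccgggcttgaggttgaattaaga
POLR3K: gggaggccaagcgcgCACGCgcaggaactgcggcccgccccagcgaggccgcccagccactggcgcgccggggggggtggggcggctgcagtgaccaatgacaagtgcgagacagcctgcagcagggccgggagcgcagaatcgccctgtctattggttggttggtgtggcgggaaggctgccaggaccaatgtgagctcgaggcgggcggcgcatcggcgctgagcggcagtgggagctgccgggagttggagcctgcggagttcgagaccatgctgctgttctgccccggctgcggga
POLR2A: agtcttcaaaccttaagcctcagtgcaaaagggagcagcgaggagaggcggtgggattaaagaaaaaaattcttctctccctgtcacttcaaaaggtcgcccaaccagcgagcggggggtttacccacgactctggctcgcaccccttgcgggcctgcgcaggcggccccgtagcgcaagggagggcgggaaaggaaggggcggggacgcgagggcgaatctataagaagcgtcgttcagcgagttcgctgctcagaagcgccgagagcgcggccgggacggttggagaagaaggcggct
The window of POLR1A held 3 matches, that of POLR3K 1 and that of POLR2A 0. Among the called members not shown, POLR2L had 1 match and the 2 starts of UBTF had 1 and 0. POLR3D was not matched to a promoter. Such matches were common: 48.4% of all 35116 promoters had at least 1 on either strand. Of the 33 members 24 could be matched to 32 promoters, and 25 of these (78.1%) had a match, including those of members that did not pass, such as POLR3A with 4. The longer palindrome CACGTG, which contains ACGTG, was found in 7.26% of all promoters and in 0 of the windows shown. A copy of it was counted as 2 matches, 1 on each strand, and POLR3A held 1 such copy. POLR3K also held 3 copies of CCAAT on either strand, a motif of 34.6% of all promoters. Base composition differed between the windows, with 44.7% G and C in POLR1A, 71.0% in POLR3K and 61.3% in POLR2A. A match is a description of the sequence and shows no binding.

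Genes for proteins that work with the polymerases also moved in both directions. Of 61 tested genes in 6 lists, 6 rose and 3 fell (14.8%, against 18.7% of all rows), with a median log2 fold change of 0.22. The lists were written with earlier results of these data known. Among 4 tested partners of polymerase I none passed. TAF1D, part of the promoter selectivity factor, had 96.3 and 93.3 CPM in knockdown against 107 and 87.9 CPM in control libraries (adjusted p = 0.907). TBP, the TATA-binding protein that serves all the enzymes, had 14.1 and 16.1 CPM against 9.22 and 11.4 CPM (0.56 ± 0.27, adjusted p = 0.179).

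Of 15 tested partners of polymerase III, 1 fell and 14 did not pass (6.67% called, against 18.7% of all rows). SNAPC3, a subunit of the complex that binds small nuclear RNA promoters, had 35.2 and 26.2 CPM in knockdown against 95.9 and 74.7 CPM in control libraries. The groups lay far apart, with a log2 fold change of −1.47 ± 0.22 (adjusted p = 0.000545). The gene has 6 accessions, and the value is of 1 row. Of 13 tested general factors of polymerase II, 2 rose and 0 fell (15.4% called, against 18.7% of all rows). Both are subunits of the repair and initiation factor TFIIH. ERCC2, a helicase, had 78.9 and 80.8 CPM in knockdown against 36.0 and 44.8 CPM in control libraries (0.98 ± 0.19, adjusted p = 0.00369). GTF2H2 had 19.6 and 14.5 CPM against 9.91 and 7.67 CPM (0.96 ± 0.29, adjusted p = 0.0335), and the gene has near-identical copies. Its call did not survive omission of control replicate 2 (adjusted p = 0.163) or of knockdown replicate 1 (adjusted p = 0.122), and its 11 alternatives spanned 0.00311 to 0.163.

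Of 19 tested elongation factors of polymerase II, 2 rose, 2 fell and 15 did not pass (21.1% called, against 18.7% of all rows). SUPT16H, a subunit of the histone chaperone FACT, had 421 and 371 CPM in knockdown against 204 and 201 CPM in control libraries (0.97 ± 0.16, adjusted p = 0.00115). RTF1, of the PAF complex, had 305 and 279.6 CPM against 198 and 214 CPM (0.51 ± 0.16, adjusted p = 0.0411). ELL2, which raises the speed of elongation, had 203 and 185 CPM in knockdown against 300.3 and 321 CPM in control libraries (−0.68 ± 0.16, adjusted p = 0.00958). Its relative ELL had 86.7 and 61.8 CPM against 115 and 109 CPM (−0.60 ± 0.20, adjusted p = 0.0490). Both groups were apart in all 4 genes, but leaving out 1 library ended the calls of 3. That of RTF1 was lost without control replicate 1 (adjusted p = 0.279) or 2 (0.125), over 0.00194 to 0.279 across 11 alternatives. That of ELL2 ended when control replicate 2 was omitted (adjusted p = 0.087), over 1.43e-05 to 0.087, and that of ELL under 5 of 11 alternatives, over 0.000775 to 0.285.

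Of 8 tested factors of polymerase assembly and import, 1 rose (12.5% called, against 18.7% of all rows). RUVBL1, an ATPase of the chaperone that assembles the enzymes, had 24.1 and 26.4 CPM in knockdown against 9.28 and 7.05 CPM in control libraries (1.63 ± 0.26, adjusted p = 0.00108). With the rows of the gene summed its log2 fold change was 0.85 (adjusted p = 0.0166). The RPAP and GPN proteins, which bring polymerase II into the nucleus, did not pass. In the mitochondrion, which has a polymerase of another kind, POLRMT did not pass at 367 and 464 CPM in knockdown against 338 and 337 CPM in control libraries (adjusted p = 0.233). TFB2M, its initiation factor, rose to 72.9 and 78.4 CPM in knockdown against 39.1 and 36.9 CPM in control libraries (0.99 ± 0.19, adjusted p = 0.00283).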

How the data were processed

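mRNA isolated from total RNA of 2 USP22 knockdown and 2 control samples was sequenced, and groups were read from the sample titles. The authors deposited raw counts per RefSeq mRNA accession (14540 rows), and the same table has their own comparison of the groups, as a log2 fold change, a p-value and a q-value, made with a tool that the labels do not name. Per the submitters' processing notes, hg19, HTSeq, bcl2fastq and HISAT2 2.1.0 were used, in roles not stated. The kit of the labels' protocols does not mark strand, so reads of overlapping or antisense genes cannot be told apart.

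Rows were kept by edgeR's filterByExpr (minimum count 10), which left 12337 and removed 2203. Knockdown minus control was tested with edgeR 4.0.16 (glmQLFit, glmQLFTest; TMM factors 0.979 to 1.01; no covariate), with Benjamini-Hochberg adjustment over all tested rows and a threshold of 0.05. The common biological coefficient of variation was 22.1%. The standard error is the log2 fold change divided by the square root of F. Within each group the libraries varied beyond counting error (chi-square per degree of freedom 33.7 in knockdown and 17.9 in control). DESeq2 1.42.0, limma-voom (limma 3.58.1), other filters, DESeq2 size factors, summed rows, a replicate block and leaving out each library were alternatives. Accession numbers per gene came from RefSeq GRCh38.p14. Named are USP22, all called members, in each class the highest and the most changed member, and per pathway list the 2 most changed called genes in each direction, or else the 2 highest; further members were named to account for all. Some items are not reported here. Members and lists were chosen with earlier results of these data known.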

Additional observations from a re-analysis of the deposited data

How the results depend on the processing

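USP22 kept its direction and call under all 11 alternatives (leaving out 1 library, −2.93 to −2.58). So did POLR1A (0.85 to 1.12) and POLR3K (0.99 to 1.42) when 1 library was left out. Over single libraries left out, the members that rose numbered 3 to 6 and those that fell 1 to 2, and all rows that rose 685 to 1340. POLR2E and POLR2I were among those that rose without knockdown replicate 1. The medians ran from 0.35 to 0.92 for polymerase I, −0.00035 to 0.19 for polymerase III and 0.12 to 0.53 for shared subunits. Genes that had not passed changed sign in the same way, the members BRF2 (−0.57 to 0.022), MAF1 (−0.13 to 0.28), RRN3 (−0.21 to 0.068) and the partner TAF1D (−0.16 to 0.11). With at least 5 CPM in 2 libraries the median of polymerase III was −0.14 and UBTF was not tested. With 1 RefSeq mRNA accession only, the shared median was 0.61, over only 2 genes, POLR2K at 0.31 and POLR2L at 0.90. With the replicate block, 7 members rose (POLR2E, POLR2I and POLR3B in addition) and 3 fell (POLR1D in addition), as did 1672 and 1859 of all rows, and 10 genes of the pathway lists rose. Equal numbers are not stated to pair the samples, and deviations of the libraries numbered 1 correlated at 0.112 across rows. The cause of these shifts was not tested, and fits that leave out a library or add the block have few degrees of freedom. Of all values under alternatives, those above included, 111 of 125 for counts, medians and USP22 kept their direction and call, or moved by less than the limits used. The limit for a median was the pooled SD of the library medians of its class, 0.079 to 0.18. That for a count was a ratio. Under it the 1859 rows that fell with the replicate block, against 1257 without it, were counted as kept. For named genes 248 of 271 kept their direction and call. A gene that had not passed was counted as kept at any size of change, as was CD3EAP at 0.23 to 6.70. Among the called members only POLR1A and POLR3K kept their call under every alternative. Rows under 150 counts limit 7 members.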
